A study of Saccharomyces cerevisiae BY4741 with 6 samples.

Results

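Hexose uptake in budding yeast was examined through 10 genes chosen by name, namely the hexose transporter genes HXT1 to HXT7, the galactose transporter gene GAL2 and the glucose sensor genes SNF3 and RGT2. The deposited table of 5631 rows holds 9 of them, and HXT1 (YHR094C) was not analysed here. The 9 genes were compared between the wild-type strain BY4741 and a strain of the same background that lacks PEX3, with 3 cultures each. Pex3 is a membrane protein needed to form peroxisomes.

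Both strains are MATa and carry his3, leu2, met15 and ura3 deletions, and the mutant also carries pex3 replaced by the kanMX4 cassette. Each is a single collection strain grown as replicate shake-flask cultures at 30 degrees Celsius, so the replicates measure cultures of a strain and not independent deletions. Cells were pregrown on 0.5% glucose and passed through a pair of dilutions into medium with 0.5% acetate, where they were harvested at an optical density of 0.5 (660 nm). Poly(A) RNA of the 6 cultures was sequenced as strand-specific libraries of 6782522 to 9410398 counts. The deleted gene was not analysed here, so the labels could not be checked against it. The libraries that stood apart most were wild type 1 and deletion 1, which held the highest value of a gene for 25.6% and 24.7% of the genes tested, against 8.26% to 16.3% in the other libraries.

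Yeast takes up hexoses by facilitated diffusion through the Hxt family, whose members differ in affinity and in the glucose level at which their genes are expressed. Snf3 and Rgt2 resemble transporters but act as receptors for low and high glucose. Their signal leads to the breakdown of the co-repressors Mth1 and Std1, which frees HXT promoters from the repressor Rgt1, while in a second branch the repressor Mig1 shuts genes off when glucose is plentiful and the Snf1 kinase lifts that repression when it is scarce. In cells growing on acetate, with no glucose supplied, high-affinity transporter genes such as HXT6 and HXT7 are known to be derepressed.

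HXT6 (YDR343C, chrIV:1159608-1161320, minus strand) and HXT7 (YDR342C, chrIV:1154216-1155928, minus strand) are neighbours in the R64 assembly, 3679 bases apart, and they are the members whose sequences limit what the counts can show. Their coding sequences are 1713 bases each and differ at 3 positions, T1632C, G1666A and T1677C, counted from 1 at the A of the start codon with the HXT6 base first. These lie within 46 bases near the end of the gene, so 99.82% of the coding bases are shared. No annotated gene overlaps either of them or any other member. Among the other pairs of members the highest identity was 83.2%, between HXT4 and HXT6. Bases 1619 to 1690 of the coding strand are shown because they hold every base by which reads from the 2 coding sequences can be told apart, with the differing bases in capitals (chrIV:1159631-1159702 for HXT6 and chrIV:1154239-1154310 for HXT7, RefSeq R64, minus strand).
HXT6: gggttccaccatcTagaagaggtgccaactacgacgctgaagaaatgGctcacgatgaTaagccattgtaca
HXT7: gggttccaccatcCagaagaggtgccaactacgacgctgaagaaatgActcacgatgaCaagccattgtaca
The flanks are less alike. The 100 bases before the start codon match at 96% of positions and the 100 bases after the stop codon at 89%, compared position by position without gaps.

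The stretch from 600 to 301 bases before the start codon is shown for 4 members that were among the most abundant or varied most between cultures, since regulators of these genes are known to bind upstream. Capitals mark matches on either strand to CGGANNA (the core bound by Rgt1), GTGGGG or GCGGGG (bound by Mig1) and AGGGG (the stress response element). The positions are chrXIII:287479-287778 (plus strand), chrVIII:289112-289411, chrVIII:296748-297047 and chrIV:1156229-1156528 (minus strand), from RefSeq R64. Part of the HXT4 window is covered by AHT1, annotated on the opposite strand.
HXT2: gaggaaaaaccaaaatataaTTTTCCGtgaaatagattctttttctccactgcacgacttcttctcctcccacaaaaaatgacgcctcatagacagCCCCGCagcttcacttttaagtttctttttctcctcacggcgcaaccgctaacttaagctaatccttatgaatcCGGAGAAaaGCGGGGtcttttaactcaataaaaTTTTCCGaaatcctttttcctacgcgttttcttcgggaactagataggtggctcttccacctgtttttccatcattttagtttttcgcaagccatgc
HXT4: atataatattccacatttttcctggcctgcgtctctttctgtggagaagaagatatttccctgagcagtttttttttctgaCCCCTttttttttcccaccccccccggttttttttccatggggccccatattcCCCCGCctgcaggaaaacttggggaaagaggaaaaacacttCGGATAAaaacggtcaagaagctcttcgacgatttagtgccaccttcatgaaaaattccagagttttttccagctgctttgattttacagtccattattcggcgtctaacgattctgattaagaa
HXT5: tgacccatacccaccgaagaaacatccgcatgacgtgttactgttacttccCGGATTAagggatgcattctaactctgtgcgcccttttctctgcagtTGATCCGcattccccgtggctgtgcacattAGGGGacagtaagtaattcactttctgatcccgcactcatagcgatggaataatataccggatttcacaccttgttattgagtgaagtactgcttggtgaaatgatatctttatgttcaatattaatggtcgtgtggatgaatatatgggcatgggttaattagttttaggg
HXT7: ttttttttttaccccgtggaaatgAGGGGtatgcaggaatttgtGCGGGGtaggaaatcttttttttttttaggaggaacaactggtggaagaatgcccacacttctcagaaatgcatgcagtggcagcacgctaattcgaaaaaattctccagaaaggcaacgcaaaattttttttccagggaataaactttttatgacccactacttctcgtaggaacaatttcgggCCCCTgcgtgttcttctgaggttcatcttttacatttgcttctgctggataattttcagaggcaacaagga
A CGGANNA match was found in this window for 5 of the 8 members searched (all but HXT6), against 28.9% of 5999 windows of all protein-coding genes, and no match overlapped one of another motif. HXT3 held 7 such matches and HXT2 held 3, while HXT7 held 0. GTGGGG or GCGGGG was found for 3 of 8 (HXT2, HXT4 and HXT7), against 9.97% of all windows. AGGGG was found for 5 of 8, against 22.5%. SNF3 and RGT2 had no match to any of these motifs in the window, and the annotated gene SEC31 overlaps the window of SNF3. A match is a run of letters and not a measured binding site.

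The other members were placed in the same assembly. HXT3 (YDR345C) is at chrIV:1162957-1164660, upstream of HXT6 on the same strand, and HXT4 (YHR092C) and HXT5 (YHR096C) share a chromosome arm at chrVIII:287081-288811 and chrVIII:294669-296447. HXT2 (YMR011W) is at chrXIII:288079-289704 and GAL2 (YLR081W) at chrXII:290212-291936. The sensor genes SNF3 (YDL194W) and RGT2 (YDL138W) are at chrIV:111580-114234 and chrIV:213351-215642.

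The order of the genes on acetate was described first, as CPM (read counts brought to an equal library total, with TMM factors) divided by coding length in kilobases, since only values per length can be compared between genes. HXT5, HXT7 and HXT6 stood far above the rest. The median over the 6 libraries was 1591 CPM per kilobase for HXT5, a transporter of moderate affinity known for expression in slowly growing cells and on non-fermentable carbon. It was 1133 for HXT7 and 1024 for HXT6, both high-affinity transporters. The ranges of neighbours among these 3 genes overlapped, so their order is not fixed beyond the spread. By mean level they ranked 55, 78 and 111 of 5519 genes with a known length. The separate levels and ranks of HXT7 and HXT6 also depend on how reads that fit both genes were split.

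HXT2, another transporter expressed at low glucose, followed at a median of 140.2 CPM per kilobase, clear of HXT6 above and SNF3 below in every library. The sensor genes were close to each other, with medians of 46.6 for SNF3 and 35.6 for RGT2. HXT4, a transporter known to be induced at low glucose, reached 20.1, and its range overlapped that of RGT2. HXT3, a low-affinity transporter known for expression at high glucose, reached 6.89, with a range below that of HXT4. GAL2 was lowest at 0.927 CPM per kilobase, from 9 to 16 reads per library. Of the 5519 genes with a row and a known length, 0.181% had a lower mean level. Genes without a row are not counted there, and the smallest row total in the deposited table was 62, beside 74 for GAL2. Together the 7 transporter genes took 0.606% to 0.969% of all counts, and HXT5, HXT6 and HXT7 made up 92.8% to 97% of that amount.

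**Figure D1:**
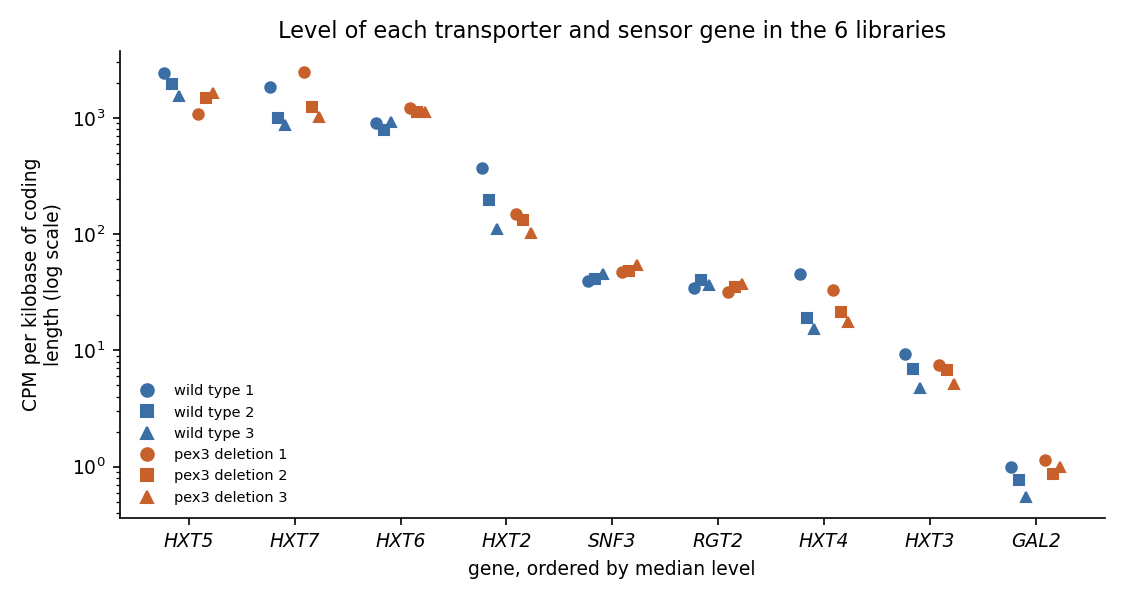
CPM per kilobase of coding length (log axis) for each of the 9 genes, ordered by median, with 1 point per library; colour gives the strain and marker shape the replicate number. HXT5, HXT7 and HXT6 lie between 791 and 2486, HXT2 between 101.8 and 369, and GAL2 near 1.

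The next question was whether the loss of PEX3 changed these levels. None of the 9 genes passed the test in either direction. At an edgeR quasi-likelihood adjusted p under 0.05 over 5628 genes, 0 of 9 were called, where 0.178% of all genes were called (0.142% higher and 0.0355% lower). Limma voom also called 0, DESeq2 called 1 (HXT6), and 3 of 9 had an unadjusted edgeR p under 0.05 (HXT6, SNF3 and HXT5), against 9.08% of all genes. The median log2 fold change of the 9 genes was -0.09, beside 0.01 over all genes tested. All 9 passed the filter on low counts. In these bulk cultures, a change in the share of cells that express a gene and a change in RNA per cell cannot be told apart.

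HXT6 had the smallest p among the 9 genes. It measured 1553, 1354 and 1592 CPM in wild-type cultures 1, 2 and 3, and 2100.2, 1942 and 1915 CPM in the deletion cultures. Every deletion library was above every wild-type library, and the replicates of each strain were close together. The means were 1500 ± 128 CPM in BY4741 and 1986 ± 100.1 CPM in the mutant (SD, n = 3 each). The log2 fold change was 0.40 (SE 0.09), which ranked 37 by p among 5628 genes, with an edgeR adjusted p of 0.253. DESeq2 gave 0.40 (SE 0.10) with an adjusted p of 0.00887, and called 0.462% of all genes higher. Its count is split from that of HXT7, so its value is uncertain, and the sum of the pair did not pass. Over all 18 alternatives that gave HXT6 a value, the fold change lay between 0.33 and 0.45 and the adjusted p between 0.00887 and 0.823.

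SNF3, the low-glucose sensor gene, was the other gene whose strains did not overlap. It measured 105.5, 109.7 and 121.4 CPM in BY4741 and 126.2, 128.1 and 144.3 CPM in the mutant. The means were 112.2 ± 8.25 and 132.8 ± 9.97 CPM (SD, n = 3 each). The log2 fold change was 0.24 (SE 0.09, adjusted p 0.495 in edgeR), so it did not pass the test. Thus 2 of 9 members lay higher in the deletion strain without overlap, and 0 lay lower, where 8.72% and 7.73% of all genes did so.

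RGT2, the high-glucose sensor gene, measured 79.6, 91.95 and 83.0 CPM in BY4741 and 73.4, 79.97 and 84.96 CPM in the mutant. The strains overlapped, and the log2 fold change was -0.09 (SE 0.09, adjusted p 0.736 in edgeR). SNF3 and RGT2 were thus the most evenly expressed members together with HXT6, each within 1.55-fold from the lowest to the highest library. The HXT6 count depends on how reads that also fit HXT7 were split.

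HXT5 had the highest level in wild type 1 and the lowest in deletion 1, the libraries that stood apart over all genes. It measured 4309, 3452 and 2746 CPM in BY4741 and 1943, 2667 and 2914 CPM in the mutant. The strains overlapped because wild type 3 lay below deletion 3. The means were 3503 ± 783 and 2508 ± 505 CPM (SD, n = 3 each), giving a log2 difference of -0.48 (SE 0.19, adjusted p 0.52 in edgeR). Leaving out single libraries gave values from -0.63 to -0.31. Without both libraries numbered 1, a setting chosen after seeing the data, it was -0.15 (SE 0.10, adjusted p 0.707 in edgeR).

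HXT2 showed the lowest fold change of the 9 genes, and its size depended largely on wild type 1. Its values were 600.2, 322 and 180.1 CPM in BY4741 and 240.7, 215.1 and 165.6 CPM in the mutant. Wild type 1 was far above the rest, wild type 2 was next, and the third wild-type culture fell among the deletion cultures. The log2 fold change was -0.83 (SE 0.38, adjusted p 0.548 in edgeR), and without wild type 1 it was -0.27 (SE 0.24, adjusted p 0.787 in edgeR). Leaving out single libraries gave values from -1.15 to -0.27. The lowest was found without wild type 3 (SE 0.27, adjusted p 0.206 in edgeR).

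HXT4 measured 79.2, 32.9 and 26.6 CPM in BY4741 and 57.4, 36.8 and 30.3 CPM in the mutant. The culture numbered 1 was highest in both strains. Its log2 fold change of -0.15 (SE 0.41, adjusted p 0.926 in edgeR) turned to 0.49 (SE 0.26, adjusted p 0.668 in edgeR) without wild type 1, so no direction can be given. HXT3 measured 15.99, 11.9 and 8.06 CPM in BY4741 and 12.9, 11.6 and 8.8 CPM in the mutant. The strains overlapped almost fully, with a log2 fold change of -0.10 (SE 0.27, adjusted p 0.926 in edgeR) that became 0.18 (SE 0.24, adjusted p 0.872 in edgeR) without wild type 1.

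GAL2 measured 1.73, 1.32 and 0.954 CPM in BY4741 and 1.98, 1.49 and 1.71 CPM in the mutant. The strains overlapped, and at 9 to 16 reads a library the log2 fold change of 0.38 (SE 0.36, adjusted p 0.736 in edgeR) is poorly determined. Of the galactose genes that share its activator Gal4, GAL10 measured 1.91 ± 0.438 CPM in BY4741 and 1.19 ± 0.601 CPM in the mutant (SD, n = 3 each). GAL3, a sensor of galactose, measured 55.3 ± 5.3 CPM in BY4741 and 50.2 ± 6.89 CPM in the mutant (SD, n = 3 each), so the group was not evenly low.

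**Figure D2:**
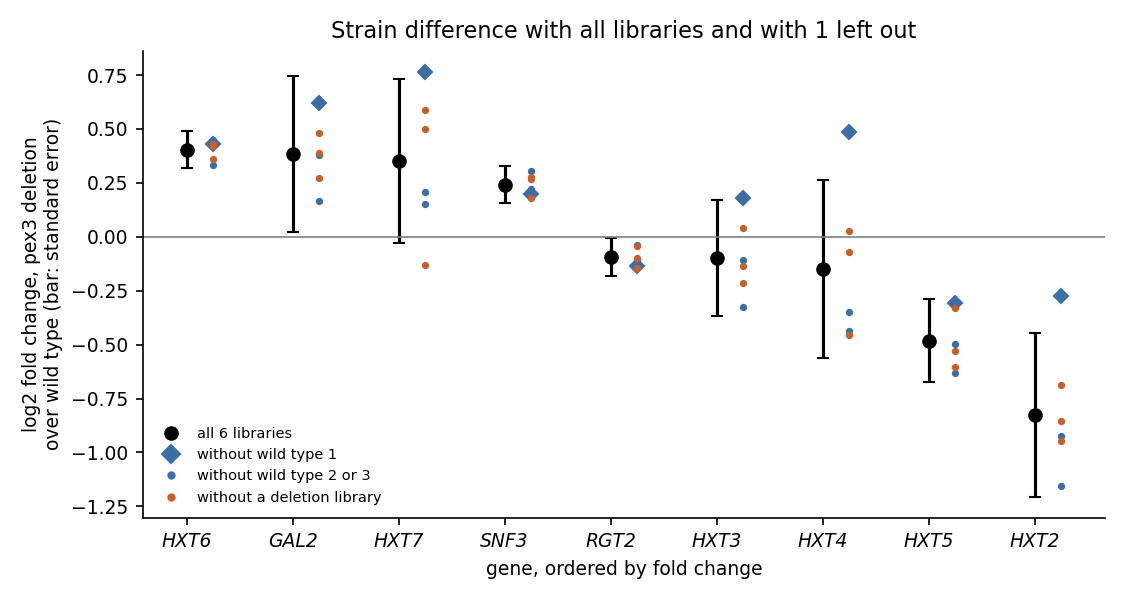
Log2 fold change of the deletion strain over the wild type for each gene (black points; bars are standard errors), with the values after leaving out single libraries beside it. HXT6 keeps between 0.33 and 0.45, while the blue diamonds show HXT4 at 0.49, HXT3 at 0.18 and HXT2 at -0.27 without wild type 1.

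HXT7 differed more between cultures of a strain than between the strains. It measured 3178, 1700.3 and 1495 CPM in wild-type cultures 1, 2 and 3, and 4259, 2125 and 1758 CPM in the deletion cultures. The culture numbered 1 was highest in both strains and the culture numbered 3 lowest in both. The means were 2125 ± 918 and 2714 ± 1351 CPM (SD, n = 3 each), and the strains overlapped, with a log2 fold change of 0.35 (SE 0.38, adjusted p 0.779 in edgeR). Without deletion 1 it was -0.13 (SE 0.31, adjusted p 0.968 in edgeR).

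HXT6 did not share this pattern, although the coding sequences are nearly the same. The ratio of HXT7 to HXT6 counts within a library needs no scaling between libraries. It was 2.05, 1.26 and 0.939 in wild-type cultures 1, 2 and 3 and 2.03, 1.09 and 0.918 in the deletion cultures with those numbers. The labels do not say whether a number marks a shared day or batch. The column headers give same-numbered cultures of both strains a shared prefix, whose meaning is not stated. In both strains the ratio was highest in number 1 and lowest in number 3, and these differed by more than 2-fold. Number 2 stood less apart, as deletion 2 (1.09) lay about as far from wild type 2 (1.26) as from wild type 3 (0.939). The mean ratio was 1.41 ± 0.571 in BY4741 and 1.35 ± 0.597 in the deletion strain (SD, n = 3 each), a difference with p = 0.7 in a two-sided exact permutation test, where 0.1 is the smallest p possible, and 0.84 after Benjamini-Hochberg adjustment over 6 such measures. Because a read outside the few differing bases and the flanks fits both genes, the split depends on how the authors' counting shared such reads. Their sum is free of that split and measured 4731, 3055 and 3087 CPM in BY4741 and 6359, 4067 and 3672 CPM in the mutant. Summed into 1 row, the pair had a log2 fold change of 0.37 (SE 0.24, adjusted p 0.622 in edgeR).

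**Figure D3:**
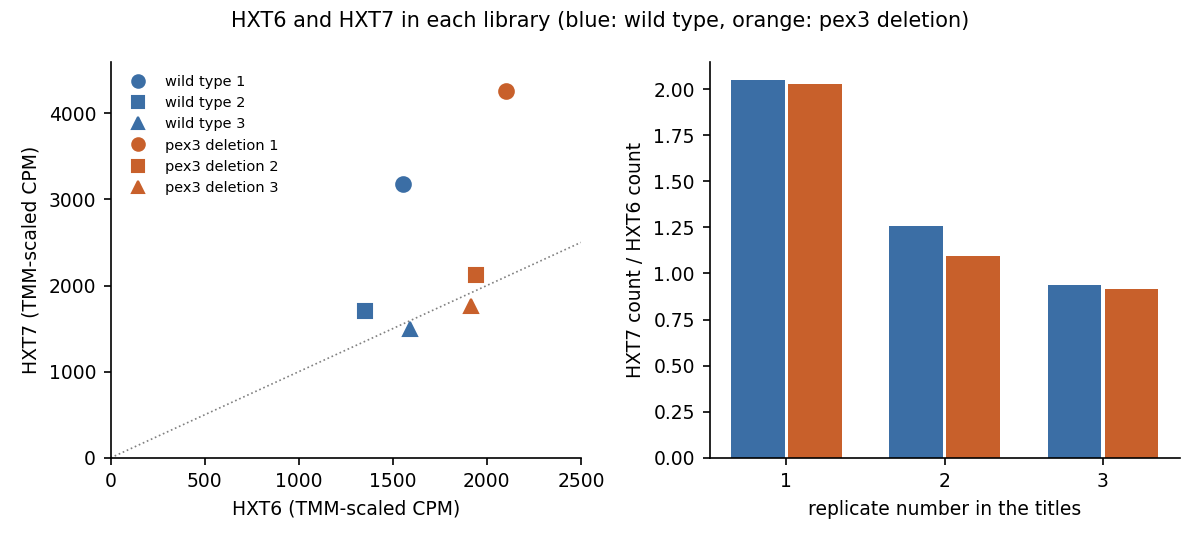
Left, HXT7 against HXT6 in TMM-scaled CPM, 1 point per library, with a dotted line of equal levels. Right, the ratio of HXT7 to HXT6 counts by replicate number, with the wild type in blue and the deletion strain in orange. The bars stand at 2.05 and 2.03 for number 1, 1.26 and 1.09 for number 2, and 0.939 and 0.918 for number 3. Deletion 2 lies about as far from wild type 2 as from wild type 3.

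HXT5 made up 44.2%, 50.2% and 45.4% of the counts of the 7 transporter genes in BY4741 and 22.6%, 38.1% and 42.9% in the deletion strain. The strains did not overlap in this share. The means were 46.6% ± 3.17 and 34.5% ± 10.6 (SD, n = 3 each), with p = 0.1 in the two-sided exact permutation test, the smallest it can give, and 0.6 after adjustment over the same 6 measures. Deletion 1, where HXT7 was highest, was the lowest library. The share of all counts taken by the 7 transporter genes was 0.756% ± 0.19 in BY4741 and 0.746% ± 0.105 in the deletion strain (SD, n = 3 each), a difference smaller than the spread between cultures, with an exact permutation p of 0.9.

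The members split by how much they varied between cultures of the same strain. HXT4, HXT2 and HXT7 varied most, with a within-strain SD of log2 CPM, pooled over the strains, of 0.67, 0.64 and 0.63. The median over all genes tested was 0.13, and at least 98.7% of genes varied less than each of these 3. HXT3 (0.40), HXT5 (0.32) and GAL2 (0.28) were intermediate, although GAL2 has few reads and its spread includes counting error. HXT6 (0.10), SNF3 (0.11) and RGT2 (0.11) varied slightly less than the median gene. The values of HXT6 and HXT7 depend on how reads that fit both genes were split between them. Their sum, free of that split, measured 4731, 3055 and 3087 CPM in BY4741 and 6359, 4067 and 3672 CPM in the mutant.

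**Figure D4:**
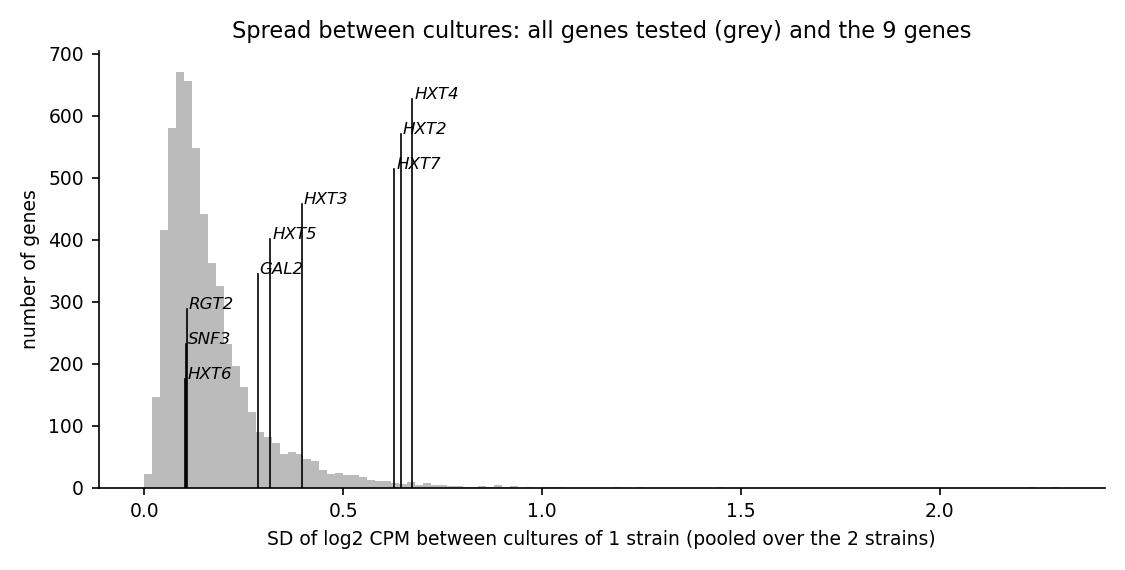
Histogram of the SD of log2 CPM between cultures of a strain, pooled over the strains, for all 5628 genes tested (grey), with a line for each of the 9 genes. HXT6, SNF3 and RGT2 lie at 0.10 to 0.11 below the median of 0.13, and HXT7, HXT2 and HXT4 at 0.63 to 0.67 in the upper tail. The values of HXT6 and HXT7 depend on how reads that fit both genes were split.

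The regulators of these genes were taken from 8 lists of glucose sensing and sugar use. Of the 52 list genes tested, 0 passed in either direction in edgeR, where 0.178% of all genes passed. An unadjusted p under 0.05 was found for 5 of the 52, a share near the 9.08% of all genes. The count in every list was also 0 in each alternative run, DESeq2 and limma voom included. Among the 8 genes of the Rgt1 branch, 0 had an unadjusted p under 0.05 and the median log2 fold change was 0.01. Among the 14 genes of the Snf1 and Mig1 branch, 1 had an unadjusted p under 0.05 and the median was -0.11. Among the 11 genes of the cyclic AMP branch, which reads glucose through the receptor Gpr1, 2 had an unadjusted p under 0.05 and the median was -0.21.

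Wild type 1 was the highest library for 29 of the 52 list genes and for 4 of the 9 members (HXT2, HXT3, HXT4 and HXT5), where it was highest for 25.6% of all genes. MIG2, a glucose-induced repressor gene, measured 13.7, 3.81 and 1.91 CPM in BY4741 and 1.98, 1.71 and 2.1 CPM in the mutant. It was 3.6-fold higher in wild type 1 than in the next library, and its log2 fold change was -1.73 (SE 0.70, adjusted p 0.523 in edgeR). RGS2, a negative regulator of the glucose-responsive G protein Gpa2, measured 55.2, 21.2 and 14.5 CPM in BY4741 and 20.1, 14.5 and 18.1 CPM in the mutant. Its log2 fold change was -0.78 (SE 0.45, adjusted p 0.603 in edgeR), and it too was highest in wild type 1. Their part in the high HXT2 and HXT4 values of wild type 1 was not tested.

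The co-repressor genes had the same highest library. STD1 measured 39.4, 23.6 and 21.3 CPM in BY4741 and 22.0, 20.5 and 21.9 CPM in the mutant, giving a log2 difference of -0.39 (SE 0.23, adjusted p 0.609 in edgeR). MTH1 measured 145.4, 101.8 and 91.9 CPM in BY4741 and 107.7, 98.5 and 91.7 CPM in the mutant, giving a log2 difference of -0.19 (SE 0.16, adjusted p 0.719 in edgeR). For both genes wild type 1 stood above all 5 other libraries, which lay close together. RGT1 itself was even, at 142.4 ± 10.3 CPM in BY4741 and 140.1 ± 14.3 CPM in the mutant (SD, n = 3 each). MIG1 measured 163.7 ± 45.3 and 124.4 ± 22.2 CPM (SD, n = 3 each), with overlapping strains and an edgeR adjusted p of 0.587.

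The kinases that phosphorylate the imported hexoses did not pass either. HXK1, a hexokinase gene repressed by glucose, lay lower in each deletion library, with means of 827 ± 66.5 and 718 ± 29.3 CPM (SD, n = 3 each) and a log2 fold change of -0.20 (SE 0.08, adjusted p 0.523 in edgeR). HXK2, whose product is also a mediator of glucose repression, measured 660 ± 112.3 and 778 ± 64.8 CPM (SD, n = 3 each), and GLK1, the glucokinase gene, 1467 ± 55.3 and 1309 ± 235.8 CPM (SD, n = 3 each), both with overlapping strains. Their edgeR adjusted p-values were 0.59 and 0.685.

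For the 4 kinase genes the middle log2 fold change was -0.13 and 1 was at an unadjusted p under 0.05, and the 4 genes for transporter removal gave the same values. The 6 galactose genes had a median of 0.02 and the 4 other carriers tested one of -0.13, with 0 at an unadjusted p under 0.05 in either list. The genes named here are those with the largest fold changes. Of the 10 further genes of the transporter family, 2 were tested, HXT9 and HXT10, and the others were not analysed here. HXT9 has near-identical relatives in the family, so its count is uncertain where reads could be split between copies. HXT9 measured 7.11 ± 0.0565 CPM in BY4741 and 5.8 ± 0.571 CPM in the mutant, and HXT10 measured 4.83 ± 0.33 and 3.87 ± 0.499 CPM (SD, n = 3 each). Both lay lower in the deletion strain without overlap, as did 7.73% of all genes, at log2 fold changes of -0.29 and -0.31 with edgeR adjusted p-values of 0.615 and 0.651. Among genes that remove transporters from the plasma membrane, the arrestin gene ROD1 had -0.45 (adjusted p 0.523 in edgeR) and CSR2 had -0.14 (0.735). Among other sugar and polyol carriers, the glycerol transporter gene STL1 had -0.25 (adjusted p 0.587 in edgeR) and MPH3 had -0.18 (0.862). The galactose regulator gene GAL3 had -0.14 (adjusted p 0.713 in edgeR) and GAL10 had -0.66 (0.645).

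**Figure D5:**
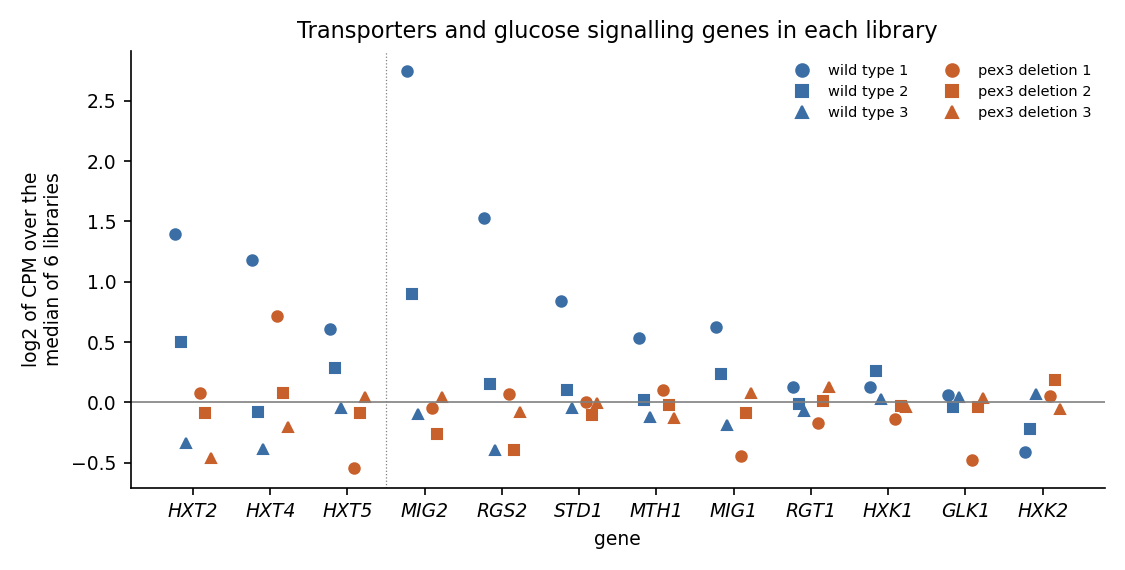
Log2 of CPM over each gene's median of the 6 libraries, for 3 transporter genes (left of the dotted line) and 9 glucose signalling and hexose kinase genes, with 1 point per library. Wild type 1 (blue circles) is the top point for HXT2, HXT4, HXT5, MIG2, RGS2, STD1, MTH1 and MIG1. By small margins it is also highest for RGT1 (153.77 CPM against 153.76 in deletion 3) and GLK1 (1505.6 against 1492.3 in wild type 3). The 3 transporter genes shown are among the 4 members highest in wild type 1. Of the members not shown, HXT6, HXT7 and GAL2 were highest in deletion 1, SNF3 in deletion 3 and RGT2 in wild type 2.

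The genes most like each member over the 6 libraries were found by the root mean square difference of their log2 CPM after each gene's mean was subtracted, among genes varying at least 0.5 times as much (SD) as the member. YGR035C was nearest to both HXT7 (0.18 on the log2 scale) and HXT4 (0.15). GCV2 and DBP2 came next for HXT7, at 0.21 each, and YOR338W and SUR2 for HXT4, at 0.24 and 0.25. HXT7 was not among the nearest 3 of HXT6, which were PMS1, CEM1 and RFU1 at 0.06 each. HXT5 was followed most closely by SAF1 (0.03), ATG7 (0.06) and PTK2 (0.06). For HXT2 the nearest was YBR238C (0.10), with VID24 and YPS1 at 0.22 each. The nearest of SNF3 were ANT1 (0.03), YDR210C-D (0.04) and HIS7 (0.04), and those of RGT2 were SRO77, SSN2 and ERG5 at 0.03 each. HXT3 had IFH1, YKR041W and RSN1 at 0.11 to 0.13, and GAL2 had OYE2, GCV1 and ASF1 at 0.11 to 0.13. From 573 to 5357 genes were compared for each member, so a close match over 6 libraries is a description only.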

How the data were processed

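The authors deposited 1 table of read counts per gene or RNA feature, whole numbers, 1 column per library. Per the submitters' processing notes, fastp 0.20.0, STAR and RSEM 1.3.3 were used with genome build R64; their order and roles, the strand setting and any filter are not given in the sources used here. RSEM gives expected counts, so the deposited values are taken to be expected counts, and as they are whole numbers they were not rounded here. Columns were matched to samples by strain and number in the titles. Gene names and coordinates came from RefSeq R64, where 5522 of 5631 rows matched a locus tag. Genes without a row were not analysed here, and the smallest row total was 62.

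The quasi-likelihood test of edgeR 4.0.16 (R 4.3.3) was run on the counts (glmQLFit, glmQLFTest, TMM factors, strain alone, filterByExpr leaving 5628 rows), with Benjamini-Hochberg adjustment over all rows and a threshold of 0.05. SE is the size of the log2 fold change divided by the square root of F. Positive values mean higher in the deletion strain. DESeq2 1.42.0 and limma 3.58.1 were alternatives. Log2 CPM for spread and likeness had a prior count of 2. All 9 members are named. From each list the text names called genes, the 2 largest fold changes and 8 fixed regulators, and for each member the 3 most similar genes. 1 gene that this rule names and 1 upstream window are not reported here. Members and lists were chosen with earlier results of these data known. P-values for strain set the difference between strains against the spread between cultures and do not measure that spread.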

Additional observations from a re-analysis of the deposited data

How the results depend on the processing

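No member was called in edgeR under any alternative. Across 19 alternatives the 9 genes gave 168 fold changes. Of these, 160 kept direction and side of the threshold, 1 newly passed and 7 reversed. The threshold of 0.01 used the main fit, where no member was called, so its fold changes could not move or change side. The cause of a change was not tested unless the alternative itself shows it. DESeq2 called 26 genes higher, 32 lower and 1 member higher (HXT6, 0.40). At a threshold of 0.01, 3 genes were higher and 0 lower, against 511 with an unadjusted p under 0.05 in that fit. Leaving out both libraries numbered 1, chosen after seeing the data, called 34 genes higher and 20 lower, with HXT3 at 0.066, HXT4 at 0.185 and HXT6 at 0.38 (edgeR adjusted p 0.0872). Leaving out single libraries called from 3 to 12 genes higher and from 0 to 5 lower, and 0 members. HXT3 ranged from -0.33 to 0.18 there (0.18 without wild type 1 and 0.04 without deletion 3), HXT4 from -0.45 to 0.49 (0.03 without deletion 3) and HXT7 from -0.13 to 0.76. Replicate numbers were not shown to pair the cultures: the deviations of same-numbered libraries correlated at -0.157, 0.23 and -0.261 across genes, and 1 of 3 wild-type libraries correlated best with its own number. With the replicate block, 1 gene was higher and 0 lower (401 at an unadjusted p under 0.05), and with the block and the gene length correction 6 were higher and 1 lower. Under the block the log2 fold change of HXT7 was 0.33 (SE 0.06, edgeR adjusted p 0.44), and no member call changed. The list counts stayed at 0 in all settings. Their median log2 fold changes moved when single libraries were left out, from -0.18 to -0.02 for the kinases, -0.25 to -0.02 for transporter removal, -0.25 to 0.02 for the other carriers, -0.28 to -0.08 for the cyclic AMP branch, -0.16 to -0.06 for the Snf1 and Mig1 branch, -0.03 to 0.05 for the Rgt1 branch and -0.11 to 0.08 for the galactose genes. With a prior count of 0.5 the within-strain SD of GAL2 moved from 0.285 to 0.322 and that of HXT3 from 0.395 to 0.402. With library totals only, that of HXT5 moved from 0.316 to 0.309. The SDs of the other members moved by less in each setting. GAL2 has no value under the mean count of at least 50.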

Other observations

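The replicate number was tested as a term beside strain in edgeR, a test chosen after the HXT7 values had been seen, so it gives no independent support to them. HXT7 had the smallest p of 5628 genes for this term, with an unadjusted p of 3.6e-05 and an edgeR adjusted p of 0.202, which did not pass. HXT4 ranked 17 (edgeR adjusted p 0.676), HXT2 ranked 163 (0.853) and HXT3 ranked 247 (0.925). SNF3 ranked 557, HXT6 1465, RGT2 1485, GAL2 2738 and HXT5 5415. The ranks of HXT6 and HXT7 depend on how reads that fit both genes were split. The term called 0% of genes (0 in edgeR, 279 at an unadjusted p under 0.05, no other tool run).

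The deletion to wild-type ratio of CPM between libraries with the same number was 1.34, 1.25 and 1.18 for HXT7 in numbers 1, 2 and 3. It was 1.35, 1.43 and 1.2 for HXT6 and 1.19, 1.17 and 1.19 for SNF3, and 1.14, 1.13 and 1.79 for GAL2, which has few reads. For HXT5 it was 0.451, 0.772 and 1.06, and for HXT2 0.401, 0.668 and 0.919. HXT3 had 0.805, 0.98 and 1.09, HXT4 had 0.726, 1.12 and 1.14, and RGT2 had 0.923, 0.87 and 1.02. How often the ratios of all genes fall on the same side in every number was not counted, so these values are a description only. The samples labelled with a number are not stated to share a day or batch.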
